A study of Homo sapiens with 30 samples.

Results

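H3K27me3 regions of RWPE1-Vector cells that had no counterpart in RWPE1-ERG cells were followed through the other deposited data. These ERG-absent regions were chosen from the RWPE1-Vector list of broad H3K27me3 regions: each lay on chr1 to chr22 or chrX, was at least 2000 bp long and shared no base with any region of the RWPE1-ERG list. Of the 492065 RWPE1-Vector regions on these chromosomes, 5898 were at least 2000 bp long, and 643 of those (10.9%) were ERG-absent. The other 5255 met an RWPE1-ERG region and are called shared regions. Because both lists chose the regions, their length, enrichment and lack of an RWPE1-ERG region are descriptions, and no test was run on them.

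RWPE1 is an immortalized line of normal human prostate epithelium. The study expressed the ETS transcription factor ERG in it by retrovirus and asked how ERK and AKT signaling change what ERG does to chromatin and transcription. The ERG proteins carried a FLAG tag. RWPE1-Vector cells for ChIP carried the empty pQCXIH vector, RWPE1-ERG cells pQCXIH with ERG (uniprot isoform 1), and RWPE1-ERG S96E cells pQCXIH with ERG in which serine is replaced by glutamate at an ERK phosphorylation site, as a mimic of phosphorylation. The lines for RNA-Seq and ATAC-Seq also carried pBabe-puro, either empty or, in the RWPE1+mAKT and RWPE1-ERG+mAKT lines, with myristoylated AKT, which is constitutively active. All lines were selected after transduction, and whether a line was 1 clone is not given in the sources used here. Each H3K27me3 list came from 1 library that pooled 3 ChIP experiments, so no list has a replicate. Expression is given as FPKM, fragment counts scaled by transcript length and library size, with 1 pooled value per line from 3 libraries. No difference below has a replicate error or a p-value, and intervals on shares of regions cover counting error only.

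H3K27me3 is trimethylation of lysine 27 on histone H3. It is placed by the polycomb repressive complex PRC2, whose catalytic subunit is EZH2, and removed by the demethylases KDM6A and KDM6B. In epithelial cells it covers silent developmental regulators densely, often at CpG-rich promoters, and lies more thinly over wide stretches of inactive genes and intergenic DNA. ERG binds DNA with the GGAA core shared by ETS factors and can bind EZH2.

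RWPE1-Vector cells expressed the basal keratin genes KRT5 and KRT14 at 3126 and 2936 FPKM and the basal regulator TP63 at 36.3 FPKM. The luminal gene KLK3 and the leukocyte gene PTPRC were listed at 0, and the endothelial genes CDH5, PECAM1 and VWF were between 0.0020 and 0.016 FPKM. ERG itself was at 0.264 FPKM in RWPE1-Vector, 0.435 in RWPE1+mAKT, 358 in RWPE1-ERG and 328 in RWPE1-ERG+mAKT. The PRC2 genes EZH2, EED and SUZ12 stood at 13.7, 24.2 and 17.2 FPKM in RWPE1-Vector and at 10.4, 26.2 and 13.3 FPKM in RWPE1-ERG. In these bulk samples fewer cells with a gene on and less RNA per cell cannot be told apart. The H3K27me3 libraries differed in depth: RWPE1-Vector had 19444504 ChIP and 15679418 input reads, RWPE1-ERG 16513053 and 9675359, and RWPE1-ERG S96E 26454542 and 19065760. The lists covered 242, 138 and 224 Mb, which is 7.96%, 4.56% and 7.37% of chr1 to chr22 and chrX. Depth and list size therefore moved with the lines, and their part in the choice of ERG-absent regions was not tested. Reads were 84 bases long in RWPE1-Vector and RWPE1-ERG but 74 in RWPE1-ERG S96E, and the effect of this on S96E cover was not tested.

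The sequences under 4 ERG-absent regions in genes whose FPKM was higher in RWPE1-ERG are shown first, as the central 200 bases of each on the plus strand of GRCh37 (hg19), with CpG dinucleotides in capitals. They let the CpGs of these centres be read directly and do not stand for the whole regions.
ESM1 region, chr5:54279974-54280173: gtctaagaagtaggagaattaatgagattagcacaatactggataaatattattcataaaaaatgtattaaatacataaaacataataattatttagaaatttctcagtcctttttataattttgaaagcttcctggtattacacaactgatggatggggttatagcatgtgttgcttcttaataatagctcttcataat
LIMCH1 region, chr4:41389531-41389730: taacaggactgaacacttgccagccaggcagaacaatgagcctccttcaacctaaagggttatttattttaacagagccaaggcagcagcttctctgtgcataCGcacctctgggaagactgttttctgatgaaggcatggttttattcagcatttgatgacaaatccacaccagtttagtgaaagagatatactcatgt
BTBD11 region, chr12:107886404-107886603: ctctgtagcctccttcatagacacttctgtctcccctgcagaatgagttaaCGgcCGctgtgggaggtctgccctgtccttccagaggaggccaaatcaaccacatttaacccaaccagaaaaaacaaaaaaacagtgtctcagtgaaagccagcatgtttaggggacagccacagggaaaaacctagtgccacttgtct
PDE2A region, chr11:72336753-72336952: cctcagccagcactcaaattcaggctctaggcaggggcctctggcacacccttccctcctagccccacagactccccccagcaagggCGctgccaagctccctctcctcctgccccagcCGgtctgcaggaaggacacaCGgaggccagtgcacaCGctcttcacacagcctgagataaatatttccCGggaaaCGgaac
The ESM1 window had no CpG and a GC content of 26.5%, the LIMCH1 window 1 CpG and 43.0%, the BTBD11 window 2 CpGs and 49.5%, and the PDE2A window 6 CpGs and 62%. Over their whole length the same regions held 8.93, 5.93, 13.3 and 18.2 CpGs per kb, while the 643 regions ran from 0 to 65.5 per kb. The 643 ERG-absent regions had, over their whole length, a median GC content of 41.6% (quartiles 37.3% and 47.1%), against 44.8% (40.2% and 49.9%) in the shared regions. The median CpG density was 7.46 per kb in ERG-absent and 10.3 per kb in shared regions, and the median ratio of observed to expected CpG 0.173 and 0.209. A ratio of at least 0.6 together with a GC content of at least 50%, the usual marks of a CpG island, was met over the whole region by 0 of 643 ERG-absent regions and by 75 of 5255 shared regions (1.43%).

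ERG ChIP-Seq peaks were deposited for RWPE1-ERG+mAKT cells, and 5 of the 643 ERG-absent regions (0.778%) held one, against 68 of 5255 shared regions (1.29%). The Wilson 95% intervals, 0.333% to 1.81% and 1.02% to 1.64%, overlapped. For 4 of these peaks the summit with 50 bases on either side is shown on the plus strand of GRCh37, with the ETS core GGAA or its complement TTCC in capitals.
BANK1 intron, chr4:102849441-102849541: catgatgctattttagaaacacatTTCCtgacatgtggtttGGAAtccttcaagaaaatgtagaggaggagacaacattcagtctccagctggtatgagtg
intergenic, chr7:63920387-63920487: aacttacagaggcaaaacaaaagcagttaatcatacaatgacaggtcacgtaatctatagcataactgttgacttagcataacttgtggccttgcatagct
COL5A1, chr9:137671373-137671473: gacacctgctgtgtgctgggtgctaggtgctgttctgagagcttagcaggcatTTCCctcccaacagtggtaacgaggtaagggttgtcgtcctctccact
CDH4 intron, chr20:60435571-60435671: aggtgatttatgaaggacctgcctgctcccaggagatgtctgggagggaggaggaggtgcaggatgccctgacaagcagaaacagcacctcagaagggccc
The BANK1 window held 2 cores, the COL5A1 window 1, and the other windows none. The fifth region lay in an intron of a noncoding gene. A core on either strand stood in 67.1% of the central windows of the same length in all 5898 RWPE1-Vector regions of at least 2000 bp, so its presence is common. The longer ETS sequence AGGAAG, searched on both strands, contains the core and was in the central window of 10.9% of ERG-absent and 12.9% of shared regions (12.7% of all 5898). The AP-1 sequence TGANTCA, which reads alike on both strands but for N, was in 4.04% and 2.91% (3.03% of all).

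Length and enrichment are values the rule or its lists used and are given as a description. The ERG-absent regions were shorter and weaker than the shared regions. Their median length was 2249 bp (2000 to 3961 bp) against 2540 bp (2000 to 14794 bp), their median fold enrichment over input 1.92 (1.65 to 2.71) against 2.05, and their median −log10 p-value 1.45 against 1.63. Of 2980 regions shorter than 2500 bp, 16.1% were ERG-absent, and the share was 9.04% from 2500 to under 3000 bp, 4.15% from 3000 to under 4000 bp and 0 of 554 at 4000 bp or more. In the quartile of regions with the highest p-values 21.9% were ERG-absent, and in the quartile with the lowest 2.1%. The median pileup was 3.14 in ERG-absent and 3.63 in shared regions. Their lowest −log10 p-values from MACS2 were 1.05 and 1.03, close to the p limit of 0.1 for weak regions. How far this limit bears on the absence of a region in RWPE1-ERG was not tested. Just inside the length limit were regions of 2000, 2000 and 2001 bp with 1.83-, 1.92- and 1.78-fold enrichment, and just outside it regions of 1999, 1999 and 1998 bp with 1.89-, 1.74- and 1.79-fold. The shared regions nearest to being ERG-absent had 3, 4 and 5 bases in RWPE1-ERG regions.

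Most ERG-absent regions lay within a few kb of an H3K27me3 region of RWPE1-ERG cells. The nearest RWPE1-ERG region was a median of 1713 bp away (quartiles 674 and 4199 bp), 223 of 643 (34.7%) had one within 1000 bp and 506 (78.7%) within 5000 bp. The regions farthest from any RWPE1-ERG region were chr4:178007078-178009958, 86254 bp away, and chr3:136040732-136042786 in an intron of PCCB, a subunit gene of propionyl-CoA carboxylase, 82848 bp away. Neither touched an RWPE1-ERG S96E region. The region in TNC, which encodes the matrix protein tenascin C, was 35964 bp from RWPE1-ERG H3K27me3 and likewise had no S96E region.

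The RWPE1-ERG S96E list was not used to choose the regions. It met 401 of 643 ERG-absent regions (62.4%, Wilson 95% interval 58.6% to 66%) and 5077 of 5255 shared regions (96.6%, 96.1% to 97.1%), and the intervals did not overlap. By bases it covered 25.5% of the ERG-absent and 80.3% of the shared regions. The cover was mostly partial: 242 ERG-absent regions (37.6%) had none, 266 (41.4%) less than 50% of their bases, 120 (18.7%) from 50% to under 100%, and 15 (2.33%) were covered whole. Among the shared regions 2449 (46.6%) were covered whole and 178 (3.39%) not at all. The RWPE1-ERG S96E regions met by ERG-absent regions had a median of 2.07-fold enrichment for the strongest at each site, against 2.71-fold at shared regions.

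**Figure D1:**
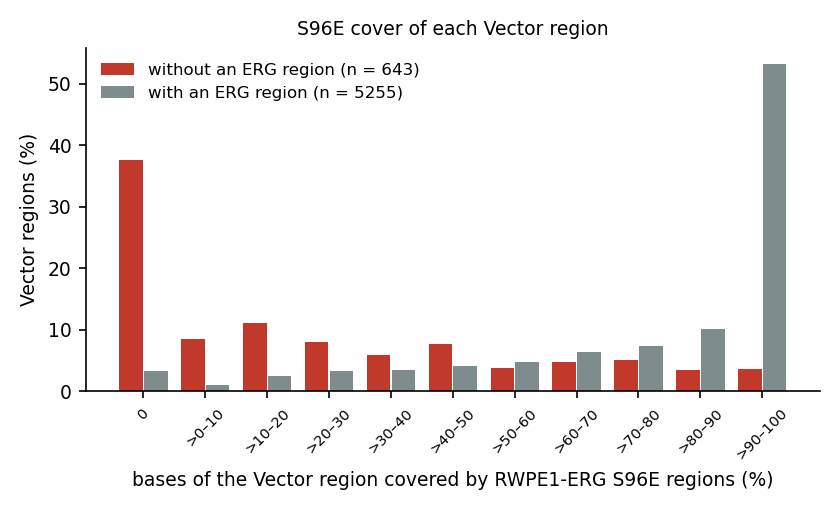
Percent of Vector regions (y axis) in each class of the percent of their bases covered by RWPE1-ERG S96E H3K27me3 regions (x axis), for the 643 ERG-absent (red) and 5255 shared regions (grey). The largest class of ERG-absent regions had no cover (37.6%), while 53.2% of shared regions were more than 90% covered.

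The share with an S96E region was also lower at each length and in each quartile of p-value. At 2000 to under 2500 bp, 291 of 480 ERG-absent regions (60.6%) and 2363 of 2500 shared regions (94.5%) met an S96E region. The shares were 66.7% of 120 and 97.2% of 1207 at 2500 to under 3000 bp, and 69.8% of 43 and 99.5% of 994 at 3000 to under 4000 bp. Within the quartile of regions with the highest p-values, 53.3% of ERG-absent and 92.5% of shared regions met one, and in the quartile with the lowest p-values 67.7% and 98.8%. In the second and the third quartile the shares were 70.7% against 96.6% and 74.3% against 97.8%. The S96E library was the deepest, and the regions are not replicates of a condition, so these intervals do not carry over to new cultures.

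**Figure D2:**
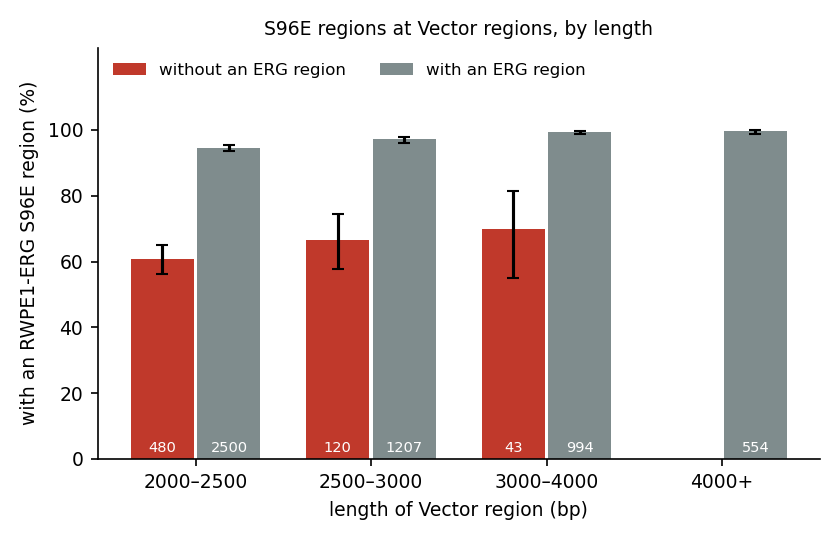
Percent of Vector regions that met an RWPE1-ERG S96E region (y axis) by region length in bp (x axis), for ERG-absent (red) and shared regions (grey). Error bars are Wilson 95% intervals, numbers in the bars count regions, and no ERG-absent region reached 4000 bp. The red bars rise from 60.6% to 69.8% and stay under the grey bars, which start at 94.5%.

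Around ERG-absent regions the S96E cover had no clear local maximum. An RWPE1-ERG S96E region covered between 22.7% and 26.4% of the regions at 5 positions within 1 kb of the centre, and between 20.4% and 26.1% of them at 70 positions from 3 to 20 kb away (median 23.2%). At shared regions the S96E list covered 77.0% to 79.9% within 1 kb and 39.5% to 65.5% from 3 to 20 kb. The RWPE1-ERG list, which by the rule was absent from the ERG-absent regions, covered 10.7% to 16.2% of positions from 3 to 20 kb away, and the RWPE1-Vector list 17.4% to 27.1%. All 3 lists were thus denser in the surroundings of ERG-absent regions than over the chromosomes as a whole. In the 10 kb on either side, the mean cover was 21.9% for RWPE1-Vector, 12.3% for RWPE1-ERG and 23.5% for RWPE1-ERG S96E, against 35.8%, 35.8% and 56.2% around shared regions.

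**Figure D3:**
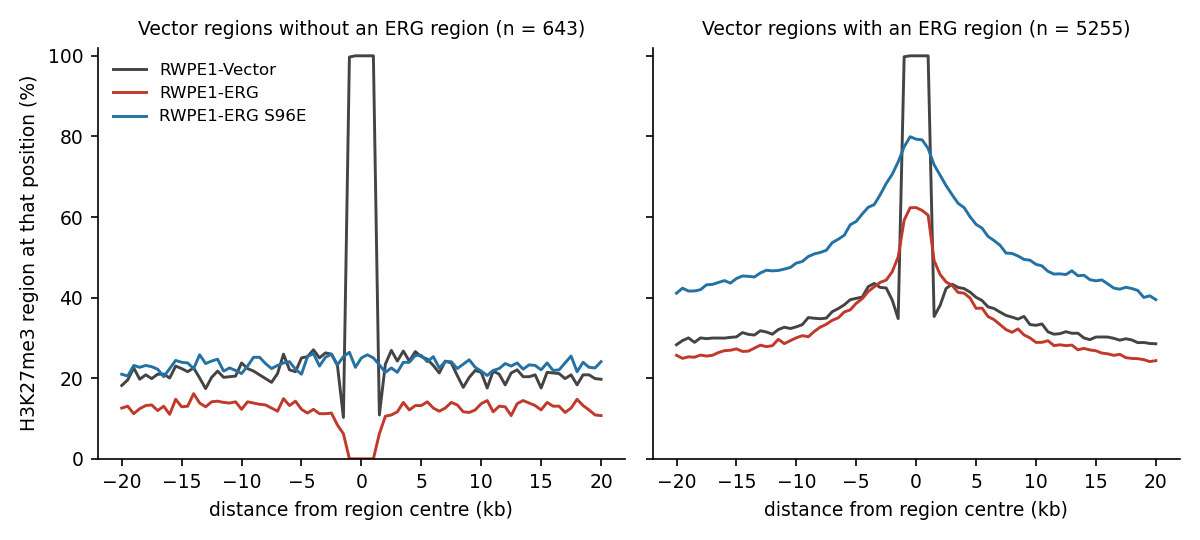
Percent of ERG-absent (left, n = 643) and shared regions (right, n = 5255) at which a position lay in an H3K27me3 region of RWPE1-Vector (black), RWPE1-ERG (red) or RWPE1-ERG S96E (blue), by distance from the region centre in kb. On the left the blue line runs between 20.4% and 26.4% within 1 kb and from 3 to 20 kb, and on the right it climbs to 79.9% near the centre. The plateau of the black line and the red gap on the left follow from the choice of regions.

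Among the 10 longest ERG-absent regions, S96E cover ran from none to whole. The longest, chr8:142682889-142686849 (3961 bp, outside genes), was 75.7% covered. The next, chr6:133286867-133290761 (3895 bp, in an intron of a noncoding gene), had no S96E cover and held an ERK2 peak of RWPE1-Vector cells. A region of 3793 bp in an intron of PDE4D, a cAMP phosphodiesterase gene, was 5.48% covered, and chr10:6983698-6987326 (3629 bp, in an intron of a noncoding gene) was covered whole. The 15 regions covered whole included introns of ALK, a receptor tyrosine kinase gene, and IQGAP2, a scaffold protein gene, and both regions in TMOD1, which encodes the actin-capping protein tropomodulin.

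The 5 ERG-absent regions with the highest fold enrichment were chr9:141086917-141089471 (2.71-fold), chr4:190955208-190958135 near FRG2 (2.49-fold), chr17:21674606-21677703 (2.45-fold), chr16:71044252-71046540 in HYDIN (2.44-fold) and chr21:9951757-9953943 (2.42-fold). The first and second were 67.3% and 74.1% covered by S96E regions, and the other 3 had no S96E cover. HYDIN, which encodes a protein of motile cilia and has a copy elsewhere in the genome, held 9 ERG-absent regions, more bases (23582) than any other gene. Reads from such copies cannot be told apart by position. Shared regions took in 124538 bases of the HYDIN locus, more than the ERG-absent ones. The nearest RWPE1-ERG region was 72 to 3589 bp from each of the 9. The gene was at 0.497 FPKM in RWPE1-Vector and 0.390 in RWPE1-ERG.

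By chromosome, the ERG-absent share of RWPE1-Vector regions of at least 2000 bp ran from 4.98% on chromosome 20 (27 of 542) to 22.1% on chromosome 21 (17 of 77), leaving out chromosome 22 and X with 6 and 3 such regions. Chromosome 1 held 71 ERG-absent regions, chromosome 2 63 and chromosome 10 54. They were scattered: the median gap from one to the next on a chromosome was 2167 kb, and 59 of these gaps were under 100 kb. By GENCODE release 44, 10 of 643 (1.56%) held the start of a protein-coding transcript, 133 (20.7%) otherwise met an exon, 255 (39.7%) lay in introns only and 245 (38.1%) outside genes. The shares in the shared regions were 4.38%, 27.5%, 33.4% and 34.7%. A coding transcript start lay in or within 5000 bp of 53 ERG-absent regions (8.24%) and 1498 shared regions (28.5%), and the median distance to the nearest was 61735 and 24307 bp.

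The 10 ERG-absent regions with a coding start were at PRAMEF26, EDARADD, KIF26B, AHRR, DDO, SYT1, TMEM114, OTOA, COX4I2 and CDH4, in several cases the start of an alternative transcript. AHRR encodes the repressor of the aryl hydrocarbon receptor, and its region at chr5:322325-324797 was 87.7% covered by S96E regions. AHRR was at 0.315 FPKM in RWPE1-Vector and 0.827 in RWPE1-ERG, a log2 ratio of 0.47 on the FPKM + 1 scale, under 2-fold. DDO encodes D-aspartate oxidase. Its region was the only one of the 10 with an ATAC peak of RWPE1-ERG cells, and it had no S96E cover.

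Open chromatin, measured by ATAC-Seq, was found in few ERG-absent and few shared regions. The RWPE1-ERG peaks covered 1.24% of chr1 to chr22 and chrX. The share of other windows of this length that meet a peak was not computed, so the shares below are not set against the genome. A broad ATAC peak of RWPE1-ERG met 35 of 643 (5.44%, Wilson 95% interval 3.94% to 7.48%), against 330 of 5255 shared regions (6.28%, 5.66% to 6.97%). The shares were 3.11% and 5.02% for RWPE1+mAKT, and 1.56% and 2.51% for RWPE1-ERG+mAKT, whose list was the smallest (41731 peaks against 62950 in RWPE1-ERG and 57616 in RWPE1+mAKT). In all, 39 ERG-absent regions met a peak of at least one list, 8 of all 3 lists and 17 of the RWPE1-ERG list alone. ATAC peaks of RWPE1-Vector were not analysed here, so peaks in RWPE1-ERG cannot be read as gained. The share grew with length: 4.79% of ERG-absent regions under 2500 bp and 14% of the 43 at 3000 bp or more met an RWPE1-ERG peak, against 4.08% and 7.95% of shared regions under 2500 bp and at 3000 to under 4000 bp.

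ERK2, the MAP kinase that phosphorylates ERG, was mapped by ChIP-Seq in both lines. Its RWPE1-Vector peaks (41265 in all) met 43 ERG-absent regions (6.69%, 5.00% to 8.89%) and 326 shared regions (6.20%, 5.58% to 6.89%). Its RWPE1-ERG peaks, a list of 5720, met 0 of 643 ERG-absent regions, which allows up to 0.594% by the Wilson interval, and 31 shared regions (0.590%). The ERK2 ChIP libraries had 8393459 reads in RWPE1-Vector and 15020233 in RWPE1-ERG, so the smaller list came from the deeper library. The paper reports higher ERK2 enrichment with ERG at ETS/AP-1 motifs that ERG binds. These counts are therefore not read as a loss of ERK2. The 5 ERG-absent regions with both an RWPE1-Vector ERK2 peak and an RWPE1-ERG ATAC peak lay in HRNR, COL5A1 and HYDIN and at 2 places outside genes on chromosomes 17 and 19.

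For expression, genes were joined to regions by the locus that the table of FPKM values gives. On chr1 to chr22 and chrX, 444 of 25839 genes had an ERG-absent region in their locus, in 241 loci. The locus is often shared: 287 of the 444 genes stood in a locus with another gene, so the region can lie in a neighbour. Silent genes made up most of the 444. In RWPE1-Vector 303 (68.2%) were below 0.1 FPKM, 67 (15.1%) from 0.1 to under 1, 43 (9.68%) from 1 to under 10 and 31 (6.98%) at 10 or more, against 42.7%, 11.3%, 20.9% and 25.0% of all genes. Among loci of 100 kb or more, where 345 of the 444 genes lay, 66.1% of overlapped and 46.9% of all genes were below 0.1 FPKM. In RWPE1-ERG 294 of the 444 (66.2%) were still below 0.1 FPKM. Low expression was not particular to these genes. At least 1 FPKM in either line was reached by 85 of the 444. Of the 1794 genes overlapped by a shared region and no ERG-absent one, a smaller part, 207, reached it.

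A change was counted when FPKM + 1 differed at least 2-fold between the lines. Of the 444 genes, 9 (2.03%) were at least 2-fold higher in RWPE1-ERG and 0 at least 2-fold lower, while over all 25839 genes 1.71% were higher and 0.468% lower. Among genes with at least 1 FPKM in either line, 85 of the 444 remained. The same 9 genes were 10.6% of these 85, against 3.62% higher and 0.988% lower over 12241 genes of the whole table. Of genes overlapped by shared regions and no ERG-absent one, 207 remained, and 10 (4.83%) were higher and 9 (4.35%) lower. The median log2 ratio was 0.10 over the 85 and -0.01 over the 12241. In 51 of the 85 (60%) the ratio was above 0, as in 48.3% of the 12241. The filter lets in genes through the line in which they are high, so the share among the 85 is not used as support. With 1 pooled value per line there is no test of these counts.

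**Figure D4:**
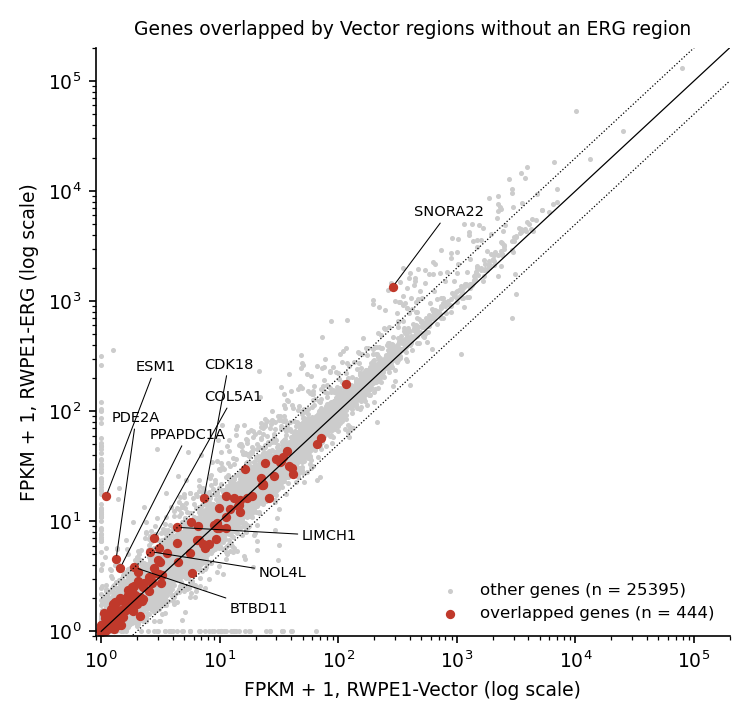
FPKM + 1 in RWPE1-Vector (x axis) and RWPE1-ERG (y axis), both on log scales, for 444 genes with an ERG-absent region in their locus (red) and the other genes of the table (grey). The solid line marks equal values and the dotted lines 2-fold differences. The 9 named genes lie on or above the upper dotted line and no red point lies below the lower one. Of the 9, BTBD11, LIMCH1 and NOL4L barely pass the 2-fold limit, with log2 ratios of 1.01, 1.02 and 1.03.

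ESM1 had the largest ratio and, among the 9 higher genes, the largest part of its locus in ERG-absent regions. It encodes endocan, a secreted proteoglycan known from activated endothelium. It was at 0.10 FPKM in RWPE1-Vector, 15.9 in RWPE1-ERG, 0.0399 in RWPE1+mAKT and 2.50 with ERG and mAKT together. Both lines with ERG were above both lines without it, and FPKM + 1 was 15.4-fold higher in RWPE1-ERG than in RWPE1-Vector (log2 ratio 3.94). The ERG-absent region, chr5:54278898-54281249 (2352 bp, 1.94-fold), filled 30.5% of the 7.72 kb locus. It took in 205 bp of the first exon and ended 172 bp short of the start of the basic ESM1 transcripts on the minus strand. With 2 shorter regions, H3K27me3 of RWPE1-Vector covered 54.8% of the locus, where RWPE1-ERG had no region. RWPE1-ERG S96E had 1 region of 387 bp at the start, which took 76 bp (3.23%) of the ERG-absent region. The nearest RWPE1-ERG region was 21360 bp away. ATAC peaks spanned the start in RWPE1-ERG (686 bp, 7.72-fold) and RWPE1+mAKT (842 bp, 4.15-fold), and reached into the ERG-absent region. In RWPE1-ERG+mAKT a peak of 384 bp (5.98-fold) began just upstream of the start. A line without ERG thus also had an ATAC peak there, and in it ESM1 was at 0.0399 FPKM.

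CDK18, LIMCH1 and BTBD11 shared with ESM1 a locus almost bare of H3K27me3 in both ERG lines. CDK18 encodes a cyclin-dependent kinase of the PCTAIRE group. It went from 6.35 FPKM in RWPE1-Vector to 15.4 in RWPE1-ERG, and was 6.23 in RWPE1+mAKT and 7.91 in RWPE1-ERG+mAKT, with a log2 ratio of 1.15 without and 0.30 with mAKT. Its region, chr1:205501030-205503572, met the end of the locus. RWPE1-Vector regions covered 16.7% of the locus, and neither RWPE1-ERG nor RWPE1-ERG S96E had a region within the locus itself. LIMCH1, which encodes an activator of non-muscle myosin, was at 3.34 FPKM in RWPE1-Vector, 7.80 in RWPE1-ERG, 3.36 in RWPE1+mAKT and 6.71 in RWPE1-ERG+mAKT. Its locus of 340 kb held 38 regions of RWPE1-Vector, 2 of RWPE1-ERG and 0 of RWPE1-ERG S96E. The RWPE1-Vector regions covered 4.76% of this locus, below the 7.96% of chr1 to chr22 and chrX that their list covered. BTBD11, a gene for a BTB-domain protein now named ABTB3, was at 0.895 FPKM in RWPE1-Vector, 2.81 in RWPE1-ERG, 0.676 in RWPE1+mAKT and 1.69 in RWPE1-ERG+mAKT. Its locus held 74 regions of RWPE1-Vector, 4 of RWPE1-ERG and 3 of RWPE1-ERG S96E, which covered 10.0%, 0.252% and 0.696% of it.

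The loci of COL5A1, PDE2A, NOL4L and PPAPDC1A had H3K27me3 regions in both ERG lines, with more bases covered in RWPE1-ERG S96E than in RWPE1-ERG. COL5A1 encodes a chain of fibrillar collagen V. It was at 1.79 FPKM in RWPE1-Vector, 5.98 in RWPE1-ERG, 1.44 in RWPE1+mAKT and 2.56 in RWPE1-ERG+mAKT. It held 4 ERG-absent regions and 10349 of their bases, of which S96E regions covered 15.7%, 90.5%, 50.0% and 9.27%. The third of these, chr9:137669212-137672123, also held the ERG peak printed above, an ERK2 peak of RWPE1-Vector and ATAC peaks of all 3 lists. Over the whole COL5A1 locus, cover was 34.6% in RWPE1-Vector, 9.89% in RWPE1-ERG and 30.0% in RWPE1-ERG S96E. PDE2A encodes a phosphodiesterase of cGMP and cAMP. It was at 0.333 FPKM in RWPE1-Vector, 3.50 in RWPE1-ERG, 0.635 in RWPE1+mAKT and 3.52 in RWPE1-ERG+mAKT, level in both ERG lines. Its region, chr11:72335290-72338415 (3126 bp), had no S96E cover, though over the locus cover was 34.6%, 15.4% and 31.5%.

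NOL4L was at 1.59 FPKM in RWPE1-Vector, 4.29 in RWPE1-ERG, 0.940 in RWPE1+mAKT and 1.38 in RWPE1-ERG+mAKT. Its region was 76.2% covered by S96E regions, and its locus 24.4%, 11.5% and 32.3% by the 3 lists. PPAPDC1A, a phospholipid phosphatase gene now named PLPP4, was at 0.448 FPKM in RWPE1-Vector, 2.77 in RWPE1-ERG, 0.179 in RWPE1+mAKT and 0.715 in the line with both. Its 2 regions lay outside coding genes, in a locus of 590 kb that it shares with WDR11. SNORA22, a small nucleolar RNA gene with many copies, was at 287, 1347, 319 and 738 FPKM in the same order, and its reads may come from those copies. Except for NOL4L, which was lower in RWPE1-ERG+mAKT than in RWPE1-Vector, each of the 9 genes was above both lines without ERG in both lines with it. Replacing the locus by the GENCODE span of the gene itself kept 7 of the 9, all but PPAPDC1A and SNORA22.

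**Figure D5:**
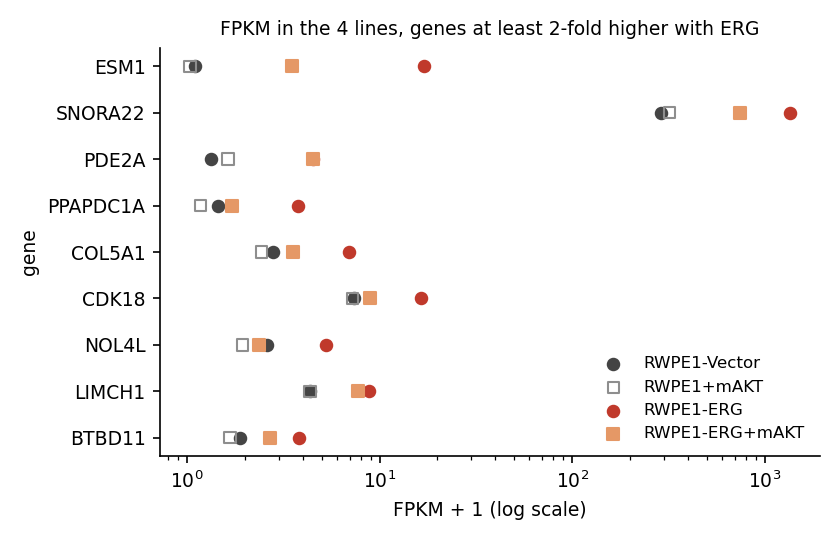
FPKM + 1 (x axis, log scale) in RWPE1-Vector (filled black circles), RWPE1+mAKT (open squares), RWPE1-ERG (red circles) and RWPE1-ERG+mAKT (orange squares) for the 9 overlapped genes at least 2-fold higher in RWPE1-ERG (y axis). Each symbol is 1 pooled value, and in ESM1 the values run from 0.0399 FPKM in RWPE1+mAKT to 15.9 FPKM in RWPE1-ERG.

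In the mAKT background, 84 of the 444 genes had at least 1 FPKM in either line. With ERG added to mAKT, 4 were at least 2-fold higher (4.76%) and 1 lower (1.19%), against 2.08% and 0.876% of 12216 genes. The 4 were ESM1, PDE2A, SNORA22 and RNVU1-19, the last a variant U1 small nuclear RNA gene with close copies, and the 1 lower was KCNMA1. KCNMA1 encodes the large-conductance calcium-activated potassium channel, has 2 ERG-absent regions in introns and went from 46.4 FPKM in RWPE1+mAKT to 18.4 in RWPE1-ERG+mAKT, and from 39.9 in RWPE1-Vector to 29.7 in RWPE1-ERG. With mAKT alone, 0 of 79 genes were at least 2-fold higher than in RWPE1-Vector and 2 lower (2.53%), against 1.16% and 0.841% of 12133 genes. Here too the filter lets in genes through the line in which they are high, so these shares are not used as support.

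Genes that were higher in RWPE1-ERG by less than 2-fold on the FPKM + 1 scale included CDH4, which encodes R-cadherin and has 3 ERG-absent regions. It was at 4.66 FPKM in RWPE1-Vector and 8.79 in RWPE1-ERG, but at 2.17 in RWPE1+mAKT and 1.84 with ERG added to mAKT. OAS2, an interferon-induced gene, was at 1.02 FPKM in RWPE1-Vector and 2.43 in RWPE1-ERG. ICA1, a gene for an islet cell autoantigen, was at 2.08 and 4.68 FPKM, but its region lay outside coding genes in a locus it shares.

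No gene of the 444 was 2-fold lower in RWPE1-ERG on this scale. WIPF1, which encodes an actin regulator, had the lowest log2 ratio, -0.78, with 4.78 FPKM in RWPE1-Vector and 2.37 in RWPE1-ERG. TNC was at 24.9 and 15.3 FPKM, CELF2, an RNA-binding protein gene, at 1.13 and 0.372, and DAB2IP, a Ras GTPase-activating protein gene, at 40.0 and 26.0. ERG-absent regions thus stood in genes with lower as well as with higher FPKM in RWPE1-ERG. The region in DAB2IP was 99.4% covered by S96E regions, and those in WIPF1, TNC and CELF2 had no S96E cover.

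Several overlapped genes with high FPKM did not contain the region themselves. NPTN (65.5 FPKM in RWPE1-Vector) shares its locus with REC114, in which the region lies, NCBP1 (37.5 FPKM) with TMOD1, and PDCD6 (116 FPKM) with AHRR. PEMT, which makes phosphatidylcholine in the liver, did contain its region and was at 35.7 FPKM in RWPE1-Vector and 42.5 in RWPE1-ERG.

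Of all 25839 genes, 1.72% had an ERG-absent region in their locus, and the gene lists stood on both sides of that share, with no test of the difference. For shared regions, 1794 of the 25839 genes had one and no ERG-absent region. Of the 444 genes with an ERG-absent region, 193 had no shared one. Of 136 developmental transcription factor genes, 2 (1.47%) had an ERG-absent region, the neural factor SOX1 and the LIM-homeobox gene LHX4, while 65 (47.8%) had a shared region. SOX1 was listed at 0 FPKM in all 4 lines, and LHX4 was at 0.346 FPKM in RWPE1-Vector and 0.229 in RWPE1-ERG. Of 39 HOX genes 0 had an ERG-absent and 8 (20.5%) a shared region, and of 69 protocadherin genes 0 and 17 (24.6%). Potassium channel genes had 4 of 97 (4.12%; KCNMA1, KCNK9, KCNQ1 and KCNIP4) and 27 (27.8%), and cadherin genes 2 of 23 (8.70%; CDH4 and CDH23) and 4 (17.4%). Collagen genes had 2 of 46 (4.35%; COL5A1 and COL6A3) and 8 (17.4%), and solute carriers 6 of 389 (1.54%) and 34 (8.74%). Olfactory receptor genes, mostly silent, had 2 of 384 (0.521%) and 5 (1.30%).

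None of 12 genes for PRC2 subunits and H3K27 demethylases, 9 ERG targets that the study names, 14 prostate luminal genes, 16 basal genes and keratins, 15 endothelial genes or 535 zinc finger genes had an ERG-absent region, and of 19 genes of epithelial-mesenchymal transition only TNC had one. Over all genes with at least 1 FPKM in either line, 3.62% were at least 2-fold higher and 0.988% lower in RWPE1-ERG. By the same count, 3 of 5 luminal genes, 4 of 15 genes of epithelial-mesenchymal transition and 1 of 16 basal genes were higher, and 5 of 16 basal genes lower. Of the ERG targets, which the study chose partly on these samples, 1 of 9 was higher. None of 12 PRC2 and demethylase genes, 24 HOX genes, 2 endothelial genes, 12 potassium channel genes, 2 olfactory receptor genes or 372 zinc finger genes passed 2-fold either way. Of 29 developmental factors 1 was higher and 1 lower, of 198 solute carriers 2 and 2, of 16 collagens 2 and 1, and of 10 protocadherins and 7 cadherins 1 each was higher. The filter lets genes in through the line in which they are high, so these counts are a description only. Of the genes in these lists that had an ERG-absent region and at least 1 FPKM, COL5A1 alone passed 2-fold.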

How the data were processed

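H3K27me3, ERK2, ERG and ATAC regions and FPKM values of RWPE1 lines were used as the authors deposited them. Per the study's methods, single-end reads were aligned to hg19 with Bowtie2, duplicates were removed with Picard, blacklisted regions with bedtools, and peaks were called with MACS2 against input. Per the file headers, the H3K27me3 lists came from MACS 2.2.7.1 with the broad setting at a p limit of 0.001 and 0.1 for weak regions. Per the file headers, each region has a pileup signal, a fold enrichment ratio over local input and a mean −log10 p-value. The MACS2 p-value compares 1 pooled library with its input. FPKM was deposited by the authors from Cuffdiff, pooled over 3 libraries per line. The deposited table's own fold changes, p-values and q-values hold the authors' comparisons and were not used, and unused per-sample columns numbered 0.

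Regions were compared by shared bases (minimum 1 bp) on chr1 to chr22 and chrX with Python 3.11.15 (pandas, numpy, scipy), tested on simulated intervals. Shares carry Wilson 95% intervals. Ratios are log2 of FPKM + 1 with a minimum of 1 FPKM in either line, and a call is 2-fold. GENCODE 44 (GRCh37 coordinates) gave genes, exons and transcript starts. The ERG-absent regions and gene lists were chosen with earlier results of these data known. Named regions were the 10 longest, the 5 with the highest fold and 5 with the lowest p, and 3 at the length limit. Named genes were the 12 largest rises and falls, the 10 with the most bases, the 10 with the highest FPKM and list members. Regions named for another reason (farthest from RWPE1-ERG H3K27me3, at coding starts, covered whole by S96E, or with ERG peaks) and OAS2 were picked after their values were seen.

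Peak lists of VCaP cells, and 1 list whose label and content differ, were not used.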

Additional observations from a re-analysis of the deposited data

How the results depend on the processing

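No paired analysis was possible because each line has 1 pooled ChIP library and 1 pooled FPKM value, and for the same reason no replicate could be left out. With other limits, the 643 ERG-absent regions became 2987 at a minimum length of 1500 bp and 43 at 3000 bp, 420 and 137 with no RWPE1-ERG region within 1000 and 5000 bp, 416 when the RWPE1-Vector list was cut to the size of the RWPE1-ERG list by p-value, 184 at 2-fold or more and 2636 when regions within 500 bp were joined. Without a region in RWPE1-ERG or S96E there were 242, an alternative added after seeing the data.

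The share with an S96E region, 62.4%, became 21% at 50% of bases covered (shared regions 82.0%), 37.5% with S96E regions of at least 2-fold (90.0%), 58.5% with the S96E list cut to the size of the RWPE1-ERG list (96.2%), 69.8% at 3000 bp (99.5%) and 35.0% with no RWPE1-ERG region within 5000 bp, and stayed below that of the shared regions wherever both were computed. The ATAC share, 5.44%, became 1.71% with 33000 peaks (shared regions 1.27%), 14% at 3000 bp (10.7%) and 3.65% with no RWPE1-ERG region within 5000 bp.

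The 444 overlapped genes became 26 at 10% of the locus, 21 at 3000 bp, 84 with no RWPE1-ERG region within 5000 bp and 275 with GENCODE spans, the last added after seeing the data. The 9 higher genes became 5 of 50 at an FPKM of 5 or more and 1 of 2 at 10% of the locus. With a pseudocount of 0.1 there were 12 higher genes and 1 lower, CELF2. The causes were not tested.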
